A study of Homo sapiens with 3 samples.

Results

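Translation initiation and elongation factor genes were examined for ARID1B binding in HEK293FRT cells, a line derived from human embryonic kidney. The genes were all protein-coding symbols that begin with EIF1 to EIF6, EEF1 or EEF2, without the eIF2 alpha kinases EIF2AK1 to EIF2AK4. This gave 66 of 19866 protein-coding genes, of which 52 were EIF and 14 EEF symbols. Members were picked by symbol and not by their binding values. The set and the comparisons were, however, chosen with earlier results of these data known. The series held 2 ARID1B chromatin immunoprecipitation sequencing (ChIP-seq) replicates and 1 input sample, for which no peak list was used here. The sample titles name no treatment, and no genotype was given. Whether the replicates came from separate cultures is not stated, so their spread may be technical. Peaks do not measure expression, so the labelled cell type was not checked against marker genes.

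ARID1B belongs to BAF, the mammalian SWI/SNF complex that remodels chromatin by sliding and evicting nucleosomes. Initiation factors bring the small ribosomal subunit, the initiator tRNA and the messenger RNA together. In the eIF4F complex eIF4E binds the cap, eIF4G is the scaffold and eIF4A is a DEAD-box helicase that unwinds the RNA ahead of the scanning subunit. Elongation factors then deliver aminoacyl-tRNAs (eEF1A) and move the ribosome along the message (eEF2).

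The replicate lists held 1792 and 1820 peaks, each with a whole-number score from the authors. The scale of the score is not given in the sources used here, so it ranks peaks within a list only. The median score was 74 in replicate 1 and 75 in replicate 2. A gene was counted as reached when a peak lay inside it or within 1000 bp of either of its ends. Peaks of both replicates that overlapped by at least 1 bp were called shared. The lists give no read counts, and the sequencing depth is unknown. All positions are on hg38.

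ARID1B peaks reached 4 of the 66 genes, namely EIF4A1, EIF4A2, EIF3G and EEF2K. These were 6.06% of the translation factor genes (exact Clopper-Pearson 95% interval 1.68 to 14.8, counting error only), against 5.33% of all protein-coding genes. The share was therefore near the background. Replicate 1 reached these 4 of the 66 members (6.06%), against 4.1% of all protein-coding genes, and replicate 2 reached the same 4, against 4.54%. Shared regions also lay at these 4 of 66 (6.06%), against 3.26% of all protein-coding genes. No member was reached by 1 replicate alone. Of all protein-coding genes 3.31% were reached by both lists, 0.79% by replicate 1 alone and 1.23% by replicate 2 alone. The 4 genes held 13 peaks in 7 regions, of which 5 regions were shared.

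The upstream sequences below are shown because peaks covered them. EIF4A1 and EIF4A2, the genes of the paralogous eIF4A helicases, each had a peak over the bases before the transcription start. CD68, the gene of a lysosomal glycoprotein of macrophages, starts inside the region that follows the end of EIF4A1. Each line gives the 250 bases before the RefSeq start (GRCh38.p14, plus strand, 5′ to 3′), and capitals mark matches to the motifs named after them.
EIF4A1, chr17:7572575-7572824: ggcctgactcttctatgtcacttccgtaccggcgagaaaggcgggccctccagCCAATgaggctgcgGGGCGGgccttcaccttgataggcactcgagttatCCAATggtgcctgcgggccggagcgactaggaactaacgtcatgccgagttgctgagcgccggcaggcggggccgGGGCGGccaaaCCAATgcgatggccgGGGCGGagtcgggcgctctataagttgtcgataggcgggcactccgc
EIF4A2, chr3:186783327-186783576: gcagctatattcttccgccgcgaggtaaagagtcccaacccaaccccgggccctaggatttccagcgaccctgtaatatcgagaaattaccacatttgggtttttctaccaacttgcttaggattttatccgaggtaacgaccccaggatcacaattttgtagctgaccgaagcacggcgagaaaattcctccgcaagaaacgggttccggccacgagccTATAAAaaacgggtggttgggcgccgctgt
CD68, chr17:7579388-7579637: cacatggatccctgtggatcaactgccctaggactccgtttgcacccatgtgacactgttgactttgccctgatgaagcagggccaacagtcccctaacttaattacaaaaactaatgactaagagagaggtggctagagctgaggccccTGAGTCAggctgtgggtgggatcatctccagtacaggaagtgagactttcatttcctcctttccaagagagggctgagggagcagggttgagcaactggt

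The EIF4A1 stretch held 3 GC boxes (GGGCGG) and 3 CCAAT boxes (CCAAT), the EIF4A2 stretch a TATA box (TATAAA), and the CD68 stretch an AP-1 match (TGANTCA). Both strands were searched. Among 22199 such stretches of protein-coding genes, 53.7% held a GC box, 32.7% a CCAAT box, 9.0% a TATA box and 5.36% an AP-1 match. The other motifs searched were ETS (CCGGAAG), TEAD (GGAATG), CRE (TGACGTCA) and E-box (CACGTG), held by 10.7%, 10.5%, 2.01% and 7.37% of stretches, and none of these letters occurred in the 3 stretches. No match overlapped another. The GC content was 65.2% before EIF4A1 and 51.6% before EIF4A2 and before CD68, against a median of 62.0% over all stretches. A match describes letters only and is not a site.

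EIF4A1 (gene ID 1973, chr17:7572825-7579006, plus strand, 6.18 kb) had its stronger region past its transcription end. The replicate 1 peak there lay at chr17:7579207-7579879 with a score of 100 (percentile 66.5 of its list), and the replicate 2 peak at chr17:7579138-7579847 with a score of 186 (percentile 87.1). They overlapped by 641 bp, and their nearer edges lay 201 and 132 bp beyond the end of the gene. Both peaks were wide, 673 and 710 bp, at percentiles 98.3 and 98.2 of the widths in their lists. The gap between EIF4A1 and CD68 measured 631 bp. Both peaks began in this gap, ran over the CD68 start and reached 242 and 210 bp into CD68. All 250 bases of the CD68 stretch printed above lay under both peaks. The region thus lay at an end of EIF4A1 and at the start of CD68, and which of these genes it belongs to was not tested.

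At the start of EIF4A1 only replicate 2 had a peak, at chr17:7572539-7572837, with a score of 36 (percentile 11.9). It covered all 250 bases of the EIF4A1 stretch and ended 12 bp inside the gene. SENP3, the gene of a SUMO protease on the same strand, ended 570 bp before this peak. The readthrough transcript SENP3-EIF4A1, annotated as a long non-coding RNA, spans both genes.

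EIF4A2 (gene ID 1974, chr3:186783577-186789897, plus strand, 6.32 kb) also had a weaker region before the start and a stronger shared region past the end. Unlike that of EIF4A1, its start region was in both replicates. The start peaks scored 43 in replicate 1 (percentile 19.2; chr3:186783281-186783530) and 38 in replicate 2 (percentile 15.9; chr3:186783353-186783556) and overlapped by 178 bp. They stopped 47 and 21 bp short of the transcription start, and each covered 204 of the 250 bases printed above. The replicate 1 peak covered bases 1 to 204 and the replicate 2 peak bases 27 to 230, so that the TATA box at bases 221 to 226 lay under the replicate 2 peak alone. No other annotated gene lay within 1000 bp of this start region.

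Past the end of EIF4A2, the shared region had scores of 116 in replicate 1 (percentile 72.4; chr3:186790299-186791016) and 103 in replicate 2 (percentile 68.0; chr3:186790355-186790715). Their nearer edges lay 402 and 458 bp beyond the end, and the replicate 2 peak lay wholly within that of replicate 1. A further peak of replicate 1 alone, at chr3:186790007-186790204 with a score of 35 (percentile 10.7), began 110 bp beyond the end. These peaks lay wholly inside RFC4, the gene of a subunit of the clamp loader of DNA replication. RFC4 is transcribed towards EIF4A2 and ends 2 bp from it, so the peaks lay beyond the end of EIF4A2 and inside RFC4 near its own end.

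**Figure D1:**
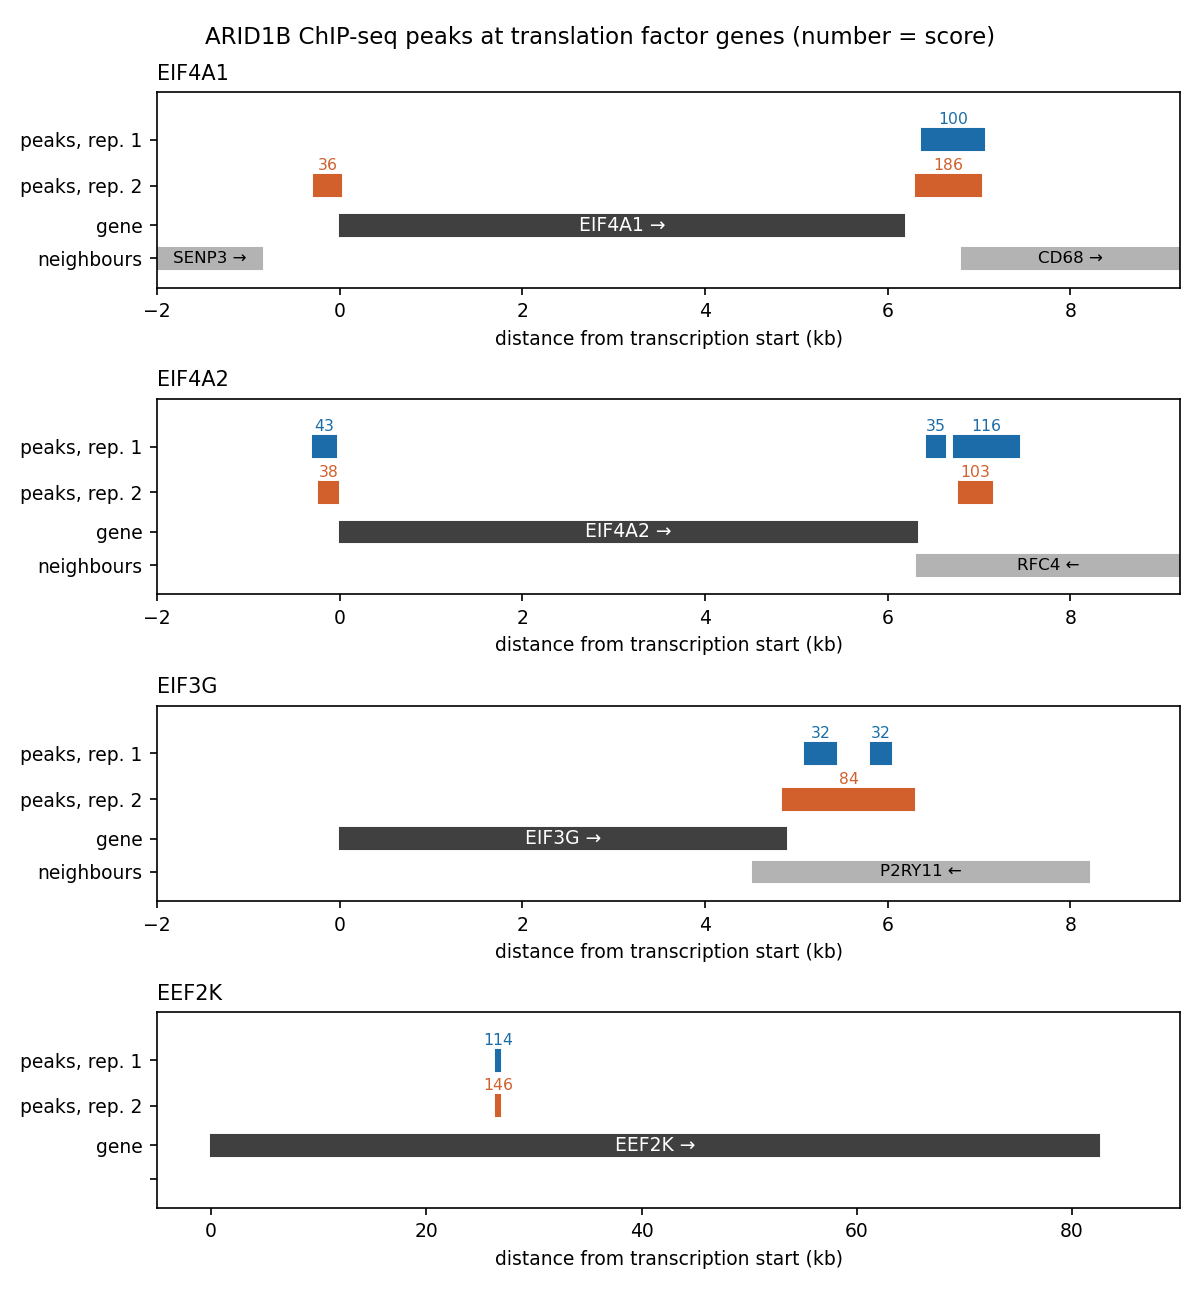
Peaks of both replicates along EIF4A1, EIF4A2, EIF3G and EEF2K, with the distance from each gene's transcription start in kb on the horizontal axis and transcription running to the right. Blue boxes are replicate 1 peaks, orange boxes replicate 2 peaks with their scores above them, dark bars the gene and light bars protein-coding neighbours with arrows for their direction. EIF4A1 and EIF4A2 had peaks just before the start and past the end, EIF3G past the end and EEF2K inside the gene.

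Peaks at both ends of a gene were rare in the lists. Of 15843 protein-coding genes with a strand in the annotation, 9 (0.0568%) had different regions within 1000 bp of the start and of the end, and EIF4A1 and EIF4A2 were 2 of them. The other 7 were GAS1, HES1, HOXA9, JUN, MAZ, PABPN1 and PKM. Apart from PKM (32.6 kb) these genes were short, from 2.58 kb (HES1) to 6.32 kb (EIF4A2). The median of all protein-coding genes was 24.5 kb, and the part of gene length was not tested. With shared regions alone 1 gene remained (0.00631%), which was EIF4A2. This property was noticed after the positions were seen, and it concerns 2 genes. The third paralogue, EIF4A3, whose product belongs to the exon junction complex, had its nearest peak 1090 kb away in both lists.

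EIF4A1 and EIF4A2 also carry small RNA genes in their bodies. EIF4A1 holds 3 small nucleolar RNA (snoRNA) genes, and EIF4A2 holds 5 snoRNA genes and 1 microRNA gene. No peak reached them. The nearest lay 1047 bp from a snoRNA gene of EIF4A1 and 1240 bp from one of EIF4A2.

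EIF3G (gene ID 8666, chr19:10115014-10119899, 4.89 kb) encodes an RNA-binding subunit of eIF3, the large complex that holds the small ribosomal subunit ready for initiation. The strand of EIF3G was taken from general knowledge, by which it is transcribed towards P2RY11, a purinergic receptor gene. The genes overlap by 359 bp at their transcription ends. Replicate 2 had 1 peak at chr19:10113605-10115042 with a score of 84 (percentile 58.0). It was 1438 bp wide, at percentile 99.9 of widths, and reached over the end of EIF3G. Replicate 1 had 2 narrow peaks within it, at chr19:10113859-10114079 and chr19:10114461-10114802, each with a score of 32 (percentile 8.3). These lay 935 and 212 bp beyond the end of EIF3G. All 3 peaks lay wholly inside P2RY11 and inside the readthrough gene PPAN-P2RY11.

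Each peak at the end of EIF4A1, EIF4A2 or EIF3G had its centre beyond the end of the gene. For EIF4A1 the centres lay 537 bp (replicate 1) and 486 bp (replicate 2) past it. For EIF4A2 they lay 208 and 760 bp past it in replicate 1 and 638 bp in replicate 2. Over all genes with a strand in the annotation, 66.1% of 59 pairs of a gene and an end peak had the centre beyond the end in replicate 1, and 76.8% of 82 pairs in replicate 2. Each of the 3 genes also had a neighbour on that side within reach of the peak.

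EEF2K (gene ID 29904, chr16:22206278-22288738, plus strand, 82.5 kb) was the EEF symbol with a peak. It encodes the calcium-dependent kinase that phosphorylates and inhibits eEF2. The peaks scored 114 in replicate 1 (percentile 71.3; chr16:22232741-22233114) and 146 in replicate 2 (percentile 79.8; chr16:22232716-22233152). The replicate 1 peak lay wholly within that of replicate 2, and their nearer edges lay 26463 and 26438 bp inside the gene from the start. Exons and introns were not separated. No other annotated gene lay within 1000 bp.

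**Figure D2:**
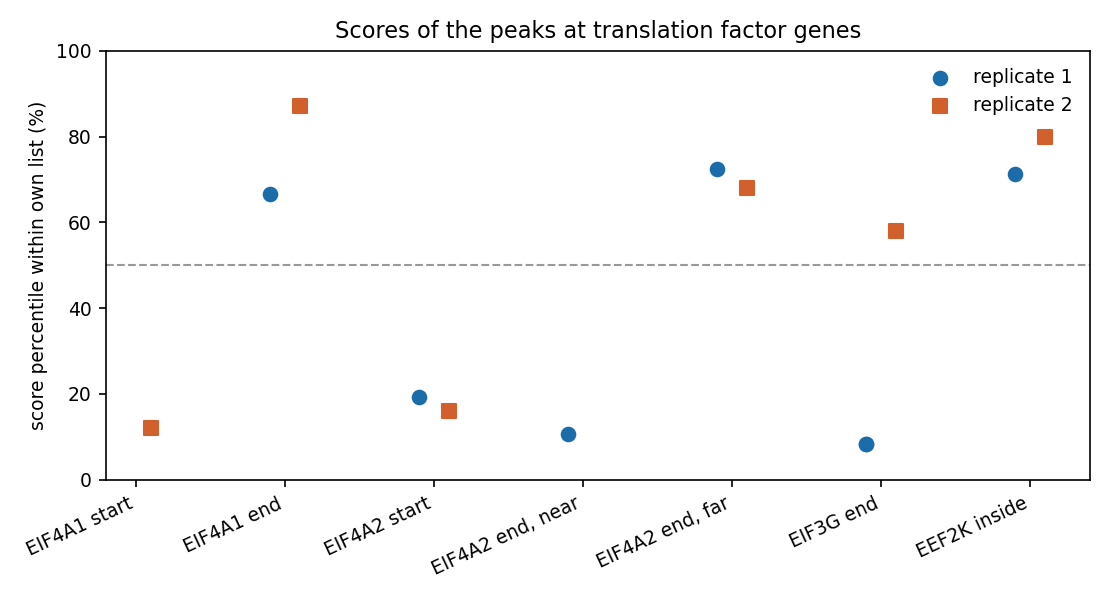
Percentile of each peak's score within its own replicate list, for the 7 regions at translation factor genes. Circles are replicate 1 peaks, squares replicate 2 peaks, and the dashed line is the middle of the list. The peaks at both starts lay below percentile 20, and the shared end regions of EIF4A1 and EIF4A2 and the EEF2K region lay above percentile 66; the 2 replicate 1 peaks of EIF3G coincide at 8.3.

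The scores of these 13 peaks ran from percentile 8.3 to percentile 87.1 of their lists, and 3 of 7 in replicate 1 and 4 of 6 in replicate 2 were at or above the list median. Their median was 43 over 7 peaks of replicate 1 (32 to 116), against 74 over the list. In replicate 2 it was 93.5 over 6 peaks (36 to 186), against 75 over the list. None came near the highest scores of 1537 and 1642. Of all peaks at transcription starts the median was 69 in replicate 1 and 73 in replicate 2, so the EIF4A1 and EIF4A2 start peaks scored low among start peaks too. Of all peaks at transcription ends it was 49.5 and 61, below the shared end peaks of EIF4A1 and EIF4A2 and the replicate 2 peak of EIF3G (84). The 2 replicate 1 peaks of EIF3G (32 each) and the further EIF4A2 end peak of replicate 1 (35) scored below that median.

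The shares of initiation and elongation factor genes with a peak had wide intervals that overlapped. Of 52 EIF symbols 3 had a peak (5.77%, exact 95% interval 1.21 to 15.9), and of 14 EEF symbols 1 did (7.14%, 0.181 to 33.9). Both shares were near the 5.33% of all protein-coding genes. The 3 EIF genes were reached past the transcription end, 2 of them at the start as well, and EEF2K was reached inside only. Sorted by symbol and without regulators and modifying enzymes, 3 of 47 EIF genes and 0 of 6 EEF genes (exact 95% interval 0 to 45.9%) had a peak. At the background share a group of 6 may well hold none. These 6 are EEF1A1 and EEF1A2, which encode eEF1A, EEF1B2, EEF1D and EEF1G, which encode subunits of its exchange factor, and EEF2.

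By place, peaks of either list lay at the transcription start of 2 of 53 members with a strand in the annotation (3.77%). Of such genes overall it was 1.5%. They lay at the transcription end of the same 2 of 53 (3.77%), EIF4A1 and EIF4A2, against 0.562%. These end regions also lay over the start of CD68 and inside RFC4, so the end counts do not separate the 2 members from their neighbours. EIF3G, whose strand is not in that table, is left out of both counts. Replicate 1 had a peak at the start of 1 of the 53 (EIF4A2, 1.89%), against 0.884% of all, and replicate 2 at 2 (3.77%), against 1.46%. At the end each replicate had a peak at the same 2 genes, against 0.353% of all genes in replicate 1 and 0.505% in replicate 2. Shared regions lay at the start of 1 of 53 (EIF4A2, 1.89%), against 0.852% of all, and at the end of 2 of 53 (3.77%), against 0.29%. Inside the gene and away from its ends 1 of 66 members (1.52%) had a peak, against 3.56% of all protein-coding genes. The median length of the members was 18.0 kb, against 24.5 kb for all protein-coding genes, and the part of length in these counts was not tested.

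**Figure D3:**
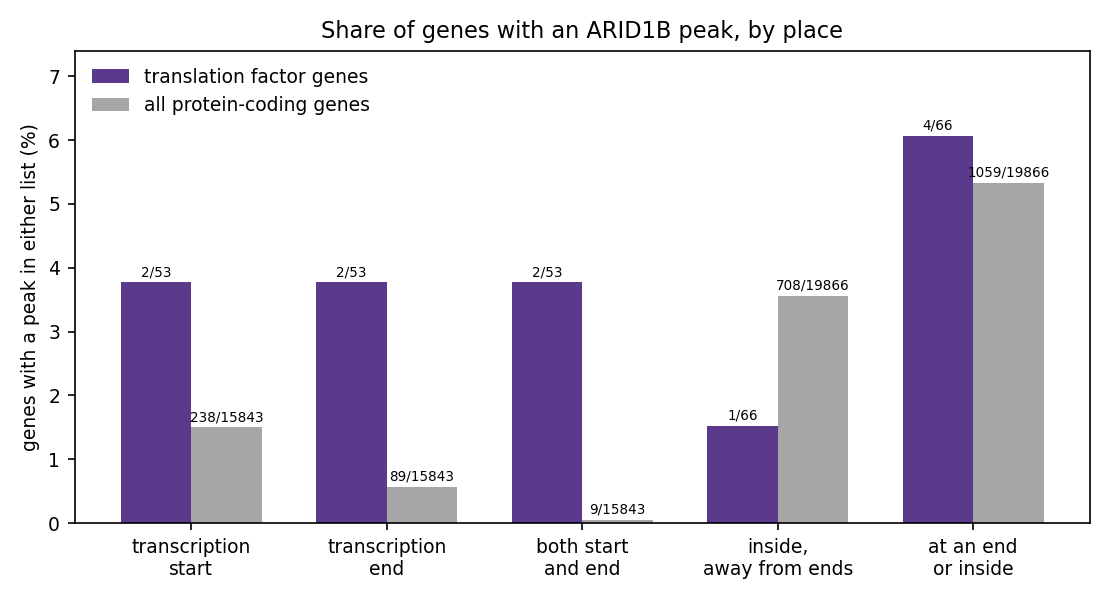
Percent of genes with a peak of either replicate, by place, for translation factor genes (purple) and all protein-coding genes (grey). Numbers above the bars are genes reached of genes counted, which for starts and ends are genes with a strand in the annotation. The purple bars for start, end and both ends all stand for EIF4A1 and EIF4A2 (2 of 53), whose end regions also lie at CD68 and inside RFC4.

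The remaining groups of factors held few genes each, and with 5.33% of all protein-coding genes reached, a count of 0 in groups of this size says nothing about the group. Within 1000 bp, 0 of 4 genes of eIF1 and eIF1A, 0 of 6 of eIF2 (initiator tRNA delivery) and related factors, and 0 of 5 of its exchange factor eIF2B were reached. The same held for 13 of 14 eIF3 genes, EIF3G being the exception. The other eIF4F parts, with 4 eIF4E and 3 eIF4G genes, had 0, as did the 2 genes of the helicase cofactors eIF4B and eIF4H. EIF5 and EIF5B, which act at start-codon selection and subunit joining, the 3 eIF5A genes and EIF6 had none, nor did 5 regulators that include the 4E-binding proteins EIF4EBP1 to EIF4EBP3. Among the other 7 elongation regulators, mostly methyltransferases of eEF1A and eEF2, 0 had a peak.

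The distance to the nearest peak was measured for every member. For the 62 members without a peak the median was 822 kb in replicate 1 and 556 kb in replicate 2, with 4 and 9 of them within 100 kb of a peak. Over all 66 members it was 799 and 418 kb, against 647 and 557 kb over all protein-coding genes. Within 20 kb of a peak lay 7.58% of members in each replicate, against 6.27% of all protein-coding genes in replicate 1 and 7.38% in replicate 2. EEF2, the translocation factor gene, came closest, with peaks at chr19:3971110-3971492 (score 53) and chr19:3970969-3971517 (score 76) that lay 4564 and 4539 bp past its transcription end and at DAPK3, a protein kinase gene. A second shared pair at P2RY11 lay 1601 and 1512 bp beyond EIF3G, with scores of 49 and 90. These are the peaks that lay outside the window but within 5000 bp of a member. The replicates differed widely at several genes, among them EIF5AL1 (2210 kb in replicate 1 and 107 kb in replicate 2) and EIF3C (1070 and 86.8 kb). A further 2 examples were, like these, singled out after the distances were seen. The nearest peak to EIF6 lay 34.5 kb away in replicate 1 and 2550 kb in replicate 2, and that to EEF1A1 2000 kb away in replicate 1 and 59.3 kb in replicate 2.

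**Figure D4:**
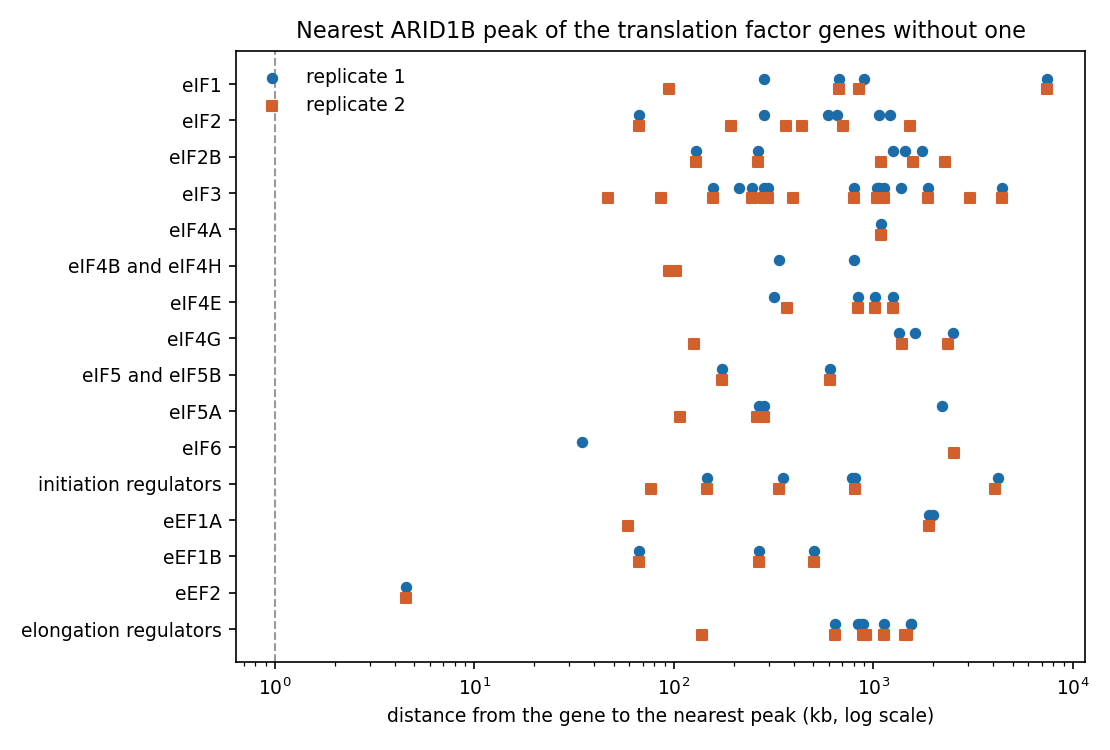
Distance in kb (log axis) from each of the 62 translation factor genes without a peak to the nearest peak of replicate 1 (circles) and replicate 2 (squares), by complex. The dashed line marks the 1 kb window. EEF2 at 4.56 and 4.54 kb is the closest, and most genes lie beyond 100 kb.

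Other genes of translation were counted in the same way. Of 74 genes in lists of release and recycling factors, eIF2 alpha kinases, initiation helpers, mitochondrial translation factors, cytosolic aminoacyl-tRNA synthetases and further elongation genes, 2 had a peak (2.7%), against 5.33% of all protein-coding genes. EIF2AK3 encodes PERK, the kinase of the unfolded protein response that phosphorylates eIF2 alpha. It had a shared region at its transcription start (chr2:88627466-88627856 and chr2:88627473-88627895) with scores of 131 in replicate 1 and 422 in replicate 2, higher than at any of the 66 members. EEFSEC, the elongation factor gene for selenocysteine, had a peak of replicate 2 alone inside the gene (chr3:128382421-128382655, score 46). None of 22 synthetase and synthetase complex genes, 19 initiation helpers, 11 mitochondrial factors or 6 release and recycling factors was reached.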

How the data were processed

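ARID1B ChIP-seq peak lists of 2 replicates were used. The submitters' processing notes name bcl2fastq 2.20.0.422, Bowtie2 2.3.4.1, MACS2 2.1.2 and hg38. The sources used here give no settings, peak threshold, handling of duplicate reads, use of the input or antibody. The deposited lists give 1 score per peak, on a scale that the authors did not state, and peaks were called per replicate. Percentiles were computed within each list.

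Starts were converted to count from 1. Genes came from a RefSeq table of GRCh38.p14 (58956 genes on primary chromosomes, 19866 protein-coding), and strand and upstream sequences from a RefSeq promoter table, which held 53 of the 66 members. Members without strand, other than EIF3G, had no peak at either end. No chance test was made. Intervals are exact Clopper-Pearson intervals and cover counting error only. All members with a peak, and all genes their peaks reach, were named. The members, the lists and the comparisons were chosen with earlier results of these data known. As a check of the code, simulated peaks were planted in 200 long genes with a strand in the annotation. Positions and sharing came back for 200 of 200. The peaks were placed well within the window, so the check does not cover short genes, split or very wide peaks, or close neighbours. Alternatives were windows of 500 and 5000 bp, higher-scoring peaks, ends only, 50% reciprocal overlap, core factors and single replicates. Python 3.11.15 and pandas 2.3.3 were used.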

Additional observations from a re-analysis of the deposited data

How the results depend on the processing

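The counts of genes rest on few genes and few regions. Of 58 values recomputed under alternatives, 52 stayed near the reported one and 6 did not. Some of the 58 could not change, so the 52 overstate how stable the counts are. Reciprocal overlap alters only which peaks are shared, and counting gene ends alone leaves the start and end counts as they are. For counts, near meant within 1.5 times the reported value, so that 3 members instead of 4 still counted as near. For the median score percentile it meant within 1 standard deviation of the member percentiles. With lower-scoring peaks (under the list median) left out, 0 members instead of 2 had a region at the transcription start. That filter also left 3 members instead of 4 with a replicate 1 peak, and 3 instead of 4 with a shared region. EIF3G dropped out of both counts. With replicate 1 alone 1 member had a region at the start, since the EIF4A1 start peak is in replicate 2 alone. With single replicates the start count therefore ran from 1 to 2. The other counts recomputed with single replicates kept their values, 4 members in all, 3 at transcription ends, 3 initiation and 1 elongation factor gene. Elongation factor genes with a peak numbered 2 within 5000 bp, where EEF2 was added, and 0 when only gene ends were counted, because the EEF2K region lies inside the gene. With gene ends alone, 1 of the other translation genes had a peak instead of 2. The median score percentile of the member peaks was then 19.2 instead of 58, because the EEF2K peaks were left out. With 50% reciprocal overlap 3 members instead of 4 held a shared region. EIF3G, with 2 narrow peaks against 1 wide one, no longer did. No paired analysis was possible because the series has 1 ChIP group and no contrast between groups. Depth is unknown, so absent peaks do not show absent binding.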
